A study of Homo sapiens with 12 samples.

Results

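The 42 genes described here act in the G2 phase of the cell cycle and in mitosis. They are a list of gene symbols covering cyclins and their kinase, mitotic kinases, kinesins, kinetochore proteins and checkpoint proteins. The rule uses their symbols and no threshold on a value, but the list was drawn up with earlier results of these data known. All 42 were found among the 23368 symbols of the deposited count tables, and all 42 had enough counts to be tested in every comparison, the lowest count being 272, for CDC25C. The cells were SUDHL6, an established human line of diffuse large B-cell lymphoma. GSK591 blocks PRMT5, an enzyme that methylates arginines of proteins. Cells were kept for 24 or 96 h with the compound at 200 nM or with DMSO as vehicle, giving 4 groups of 3 libraries of poly(A)-selected RNA, all of the same line with no genetic change named in the labels. Whether the 3 libraries of a group are separate cultures is not in the labels, so p-values measure the spread between these libraries, which may be technical. The 2 drug effects were each taken against the vehicle of the same time, and the change of vehicle cells between the times was set beside them.

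Entry into mitosis depends on the kinase CDK1 bound to a cyclin of the A or B type and switched on by CDC25 phosphatases. The spindle checkpoint holds chromosome separation until kinetochores are attached to the spindle, after which the ubiquitin ligase APC/C, with its activator CDC20, marks cyclin B and securin for breakdown. Most genes of this programme are transcribed late in the cycle, through promoter elements called the cell cycle homology region and the CCAAT box, by complexes that contain MuvB, B-MYB and FOXM1, and a DREAM complex represses them in resting cells. Germinal centre B cells and lymphomas that derive from them divide quickly, and transcripts such as MKI67 serve as markers of dividing cells in pathology.

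The promoters are shown because many of the members share these elements. With all libraries, the called members moved in 1 direction in each drug effect and in the vehicle change. Whether the elements bear on that direction was not tested. RefSeq promoter windows (GRCh38.p14, 250 bases before to 50 after a start site, 300 in all) were matched by symbol for 36 of the 42 members, with 46 windows, since some genes have several starts. FOXM1, AURKA, TPX2, BIRC5, TTK and UBE2C were not matched. The letters TTTGAA or TTCGAA of the cell cycle homology region, on either strand, stood in 32 of the 46 windows (69.6%), against 16.4% of all 35116 windows of the table. The letters CCAAT, on either strand, stood in 35 of the 46 windows (76.1%), against 34.6% of all windows, and both elements stood in 27 windows (58.7%, against 6.38%). The elements shared a base in 2 of the members' windows. A match is a run of letters, not a measured site. The lines below give the 120 bases just before the start site, 5′ to 3′, with matches in capitals. CCNB2, KIF4A and MKI67 hold both kinds of letters, KIF20A and CCNB1 hold only CCAAT in this stretch, and PRC1 holds both. No other letters were searched, so a promoter without a match is not shown to lack the homology region.
CCNB2 (chr15:59105026-59105145, plus strand): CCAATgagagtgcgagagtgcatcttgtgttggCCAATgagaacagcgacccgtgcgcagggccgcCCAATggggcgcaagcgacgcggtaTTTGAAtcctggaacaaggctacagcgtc
KIF4A (chrX:70289984-70290103, plus strand): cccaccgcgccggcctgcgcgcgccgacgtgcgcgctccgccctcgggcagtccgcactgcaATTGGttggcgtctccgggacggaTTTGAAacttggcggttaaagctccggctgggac
MKI67 (chr10:128126424-128126543, minus strand): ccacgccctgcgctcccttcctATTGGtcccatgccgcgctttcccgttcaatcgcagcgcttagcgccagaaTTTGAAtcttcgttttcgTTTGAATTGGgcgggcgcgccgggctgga
KIF20A (chr5:138178992-138179111, plus strand): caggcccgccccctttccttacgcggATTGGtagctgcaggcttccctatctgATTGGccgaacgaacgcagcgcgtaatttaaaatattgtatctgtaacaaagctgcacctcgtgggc
CCNB1 (chr5:69167030-69167149, plus strand): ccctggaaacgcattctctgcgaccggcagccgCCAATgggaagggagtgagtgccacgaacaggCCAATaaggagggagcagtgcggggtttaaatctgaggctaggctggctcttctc
PRC1 (chr15:90994536-90994655, minus strand): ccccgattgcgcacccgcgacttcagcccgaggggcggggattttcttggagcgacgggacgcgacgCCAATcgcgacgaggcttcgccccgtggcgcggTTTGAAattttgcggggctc
The first 4 of these genes fell with GSK591 at 96 h, and CCNB1 and PRC1 did not pass the test there. Among the 29 matched members with the homology letters in any of their windows, 18 fell with the drug at 96 h (median log2 fold change -0.28). Of the 7 without them (AURKB, CCNA2, CCNB1, CENPE, KIF20A, KIF2C and PTTG1) 4 fell (median -0.27). With CCAAT in any window 19 of 30 fell (median -0.31), and without it 3 of 6 (median -0.25). Of all genes tested, 19.6% fell there. In the vehicle change 25 of the 29 with the homology letters rose (median 0.40) and 6 of the 7 without them (0.48). For CCAAT it was 26 of 30 (0.41) and 5 of 6 (0.39), and 28.3% of all genes tested rose. These splits were not tested.

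The total counts of 11 libraries lay between 48.5 and 64.4 M, and vehicle replicate 1 at 96 h held 547.9 M. All 10 B-cell markers of a fixed list were above 1 CPM (counts scaled to the effective size of the library) in every group and their summed level ran from 7810 CPM in 1 vehicle library of 24 h to 9190 CPM in 1 GSK591 library of 96 h. All 22 markers of T and NK cells, myeloid cells, fibroblasts and epithelium had group means below 1 CPM, with summed levels of at most 0.458, 1.38, 1.25 and 0.217 CPM. CD3D, CD2, S100A8, S100A9, DCN and KRT19 were at 0 in every library. The summed myeloid and fibroblast levels were highest in GSK591 cells of 96 h, and their part in the results was not tested. The libraries numbered 2 at 96 h stood apart from the others of their groups. In vehicle replicate 2 all 42 members were at their highest of the 3 vehicle libraries, and in GSK591 replicate 2 this held for 37 members. The mean log2 CPM over the 42 genes was 0.18 above the group mean in vehicle replicate 2 and 0.13 above it in GSK591 replicate 2. For the 42 members, the values the results at 96 h rest on are therefore given with and without these libraries. For whole lists, the counts of calls in the drug effect at 96 h and in the vehicle change are also given both ways. Counts for parts of a list are not.

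**Figure D1:**
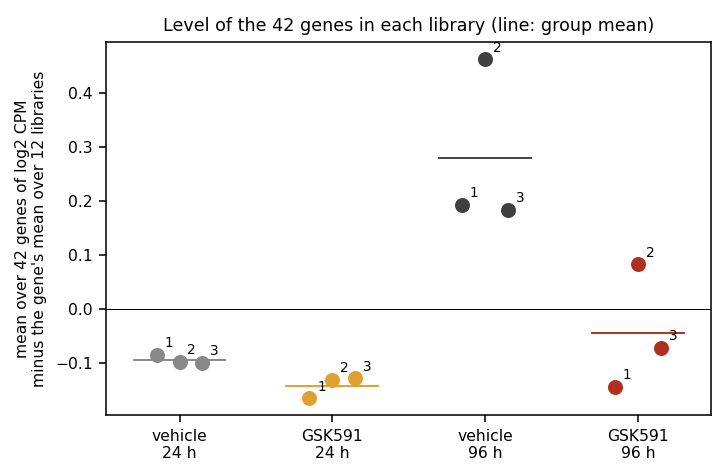
Mean over the 42 genes of log2 CPM in each library, relative to each gene's mean over the 12 libraries (y axis), for the 4 groups (x axis). Points are libraries, numbered by replicate, and lines are group means. Vehicle replicate 2 at 96 h, at 0.46, is the highest point, and the 6 libraries of 24 h lie between -0.17 and -0.08.

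With GSK591 for 24 h, 11 of the 42 genes fell and none rose. With GSK591 for 96 h, 25 fell and none rose. In vehicle cells between 24 and 96 h, 36 rose and none fell. Over all genes tested, 7.29% were called lower and 7.44% higher with the drug at 24 h, 19.6% lower and 20.7% higher at 96 h, and 27.8% lower and 28.3% higher in the vehicle change. In either direction that is 14.7%, 40.2% and 56.1%. The median log2 fold change of the members was -0.04 at 24 h, -0.28 at 96 h and 0.41 in the vehicle change, beside medians over all genes of 0.00, 0.00 and 0.01. A gene is called when its Benjamini-Hochberg adjusted p in edgeR's quasi-likelihood test is under 0.05. At an unadjusted p under 0.05, 1 member was higher at 24 h, 0 were higher at 96 h and 0 were lower in the vehicle change, and DESeq2 gave 0 calls in each of these 3 directions. In bulk RNA, fewer cells in G2 phase or mitosis and less of these transcripts per cell cannot be told apart. The drug effect at 96 h and the vehicle change share the vehicle libraries of 96 h, and the drug effect at 24 h and the vehicle change share those of 24 h, so their values are set side by side and not correlated. The times were deposited as separate tables, and time cannot be told apart from any other difference between the 2 sets of libraries.

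The vehicle groups of 24 and 96 h did not overlap, all upwards, for 37 of the 42 members (31.1% of all genes tested were higher without overlap and 30.9% lower). The GSK591 and vehicle groups of 96 h did not overlap, all downwards, for 30 members (29.7% of all genes tested). At 24 h this held downwards for 18 members (16.2%) and upwards for 2 (15.7%). Without the 96 h libraries numbered 2, 35 members were called lower and 1 higher with the drug at 96 h, and 37 were called higher and 3 lower in the vehicle change, which then had a median of 0.30. At the same setting, 30.2% of all genes tested were called lower and 30.2% higher at 96 h, and 34.3% were higher and 34.0% lower in the vehicle change. With the deep library, vehicle replicate 1 of 96 h, thinned to the median depth of the others, 25 members were lower and 0 higher at 96 h. The median was then -0.28, and 19.2% of all genes tested were lower and 20.2% higher. The drug count at 96 h was 13 without GSK591 replicate 3, 14 without vehicle replicate 2 and 16 without GSK591 replicate 1. In these settings 12.2%, 12% and 12% of all genes tested were called lower. The count at 24 h was 4 or 7 with GSK591 replicate 1 or 3 left out, and 6 or 5 with vehicle replicate 1 or 2 left out. Of all genes tested, 3.84% or 3.81% and 5.19% or 3.97% were then called lower. The fit of the 24 h comparison had a biological coefficient of variation of 2.35%, against 8.19% at 96 h. With all 12 samples in 1 fit none of the 11 was called (adjusted p from 0.403 to 0.744). In that fit 0.212% of all genes tested were called at 24 h, 0.102% lower and 0.11% higher.

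**Figure D2:**
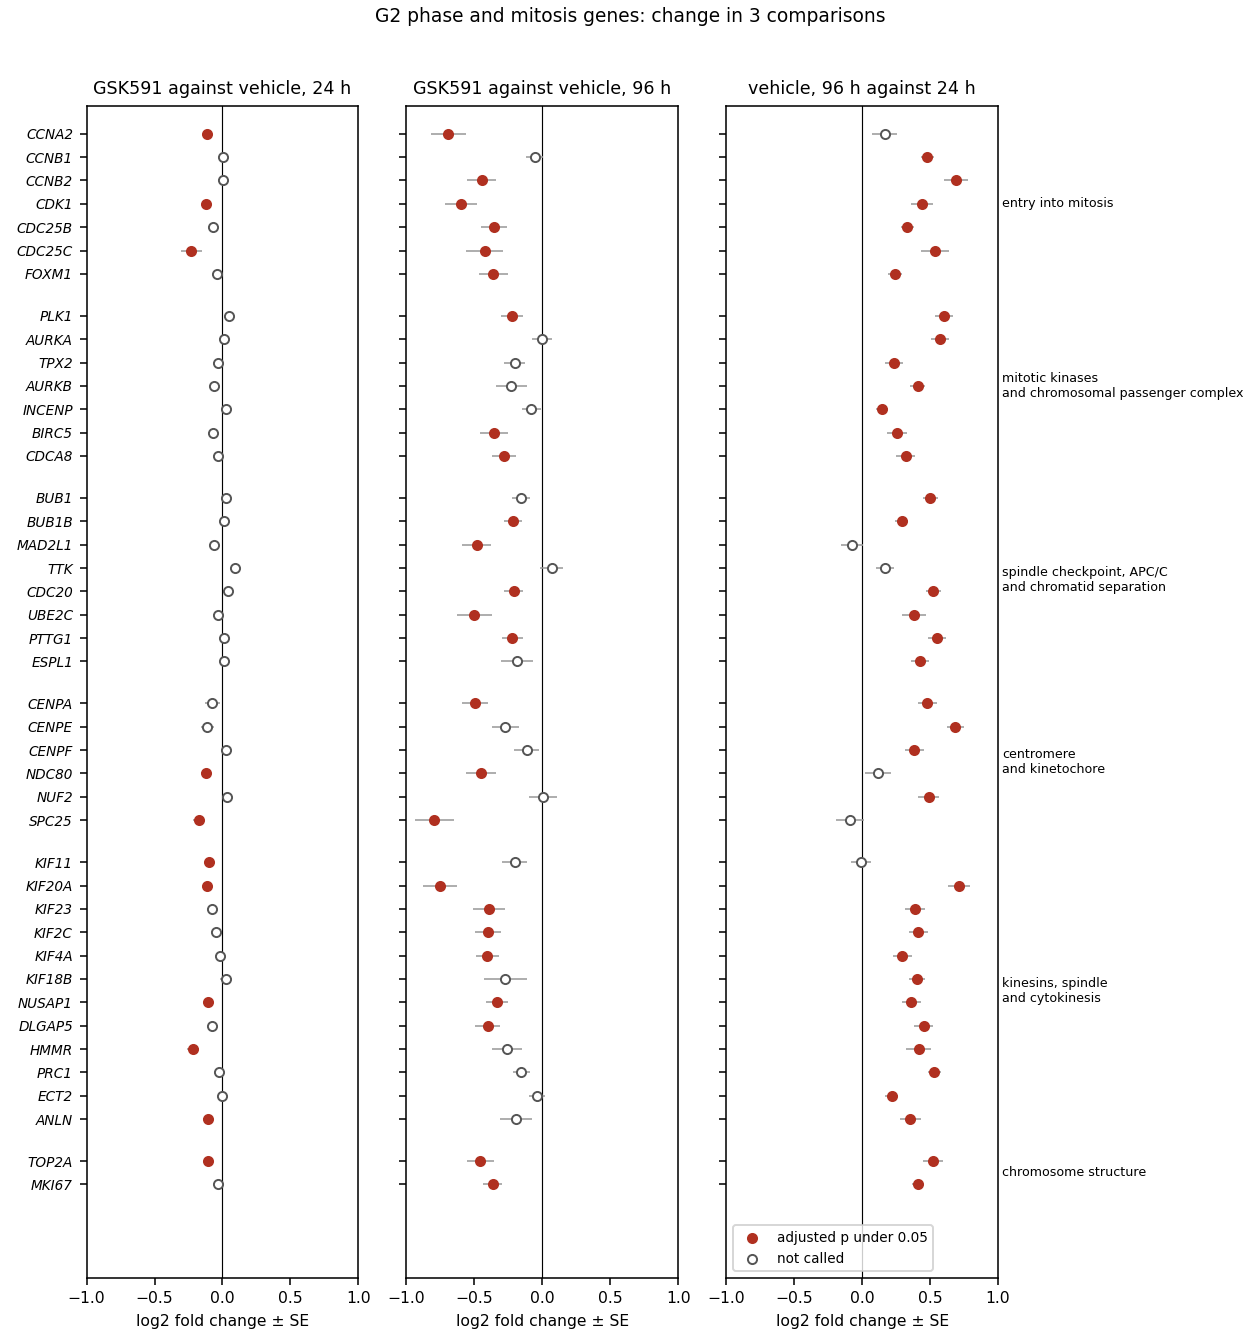
Log2 fold change ± SE (x axes) of each of the 42 genes (y axis, grouped by role) for GSK591 against vehicle at 24 h, the same at 96 h, and vehicle at 96 h against 24 h, with 3 libraries a group. Filled points passed an adjusted p of 0.05. The points of the drug effect at 96 h lie between -0.80 and 0.07 and those of the vehicle change between -0.09 and 0.71.

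Of the 7 genes that drive entry into mitosis, 3 fell at 24 h (CCNA2, CDK1 and CDC25C) and 6 at 96 h with GSK591, and 6 rose in vehicle cells. The 24 h call of CDC25C, the member with the lowest count, was close to the threshold (-0.23 ± 0.08, adjusted p = 0.0497). CCNA2 encodes cyclin A, which acts in S phase and at mitotic entry. It stood at 53.6, 55.1 and 51.7 CPM in vehicle and 48.9, 50.4 and 49.2 CPM in GSK591 cells at 24 h. All treated libraries were below all vehicle libraries, a log2 fold change of -0.11 ± 0.03, adjusted p = 0.0256, lost without GSK591 replicate 1 (-0.10, 0.109), GSK591 replicate 3 (-0.11, 0.0804), vehicle replicate 1 (-0.11, 0.0687) or vehicle replicate 2 (-0.09, 0.136) (in such brackets, the log2 fold change and adjusted p without that library). Its levels were 54.4, 72.2 and 54.8 CPM in vehicle and 32.4, 42.6 and 35.8 CPM in GSK591 cells at 96 h, again with no overlap (-0.69 ± 0.13, adjusted p = 0.00454). The difference between the drug effects of the 2 times was -0.59 ± 0.15, adjusted p = 0.0112. In vehicle cells it was the only gene of the 7 that did not pass the test between the times (0.17 ± 0.09, adjusted p = 0.145), and it was called there without vehicle replicate 1 of 96 h (0.25, 0.0459) and was 0.03 without vehicle replicate 2 of 96 h (adjusted p = 0.439). CDK1, the catalytic partner of cyclins A and B, stood at 110.1, 113 and 110.4 CPM in vehicle and 99.0, 106 and 102 CPM in GSK591 cells at 24 h. The groups did not overlap (-0.12 ± 0.03, adjusted p = 0.00538). The 96 h libraries stood at 137, 178 and 139 CPM in vehicle and 88.5, 112 and 95.6 CPM in GSK591 cells, with the lowest vehicle library above the highest treated one (-0.60 ± 0.12, adjusted p = 0.00546). CDK1 rose in vehicle cells between the times (0.44 ± 0.08, adjusted p = 0.00123).

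CCNB1 encodes cyclin B1, the main partner of CDK1 in mitosis. It read 109.8, 106 and 109 CPM in vehicle and 107, 108 and 111 CPM in GSK591 cells at 24 h, with overlapping groups and no call (0.00 ± 0.03, adjusted p = 0.956). Its 96 h values were 145, 164 and 145 CPM in vehicle and 148, 136 and 149 CPM in GSK591 cells. These groups overlapped too (-0.06 ± 0.06, adjusted p = 0.498), while vehicle cells rose from 24 to 96 h by 0.48 ± 0.05, adjusted p = 2.48e-05. CCNB2, the gene of cyclin B2, also rose in vehicle cells (0.69 ± 0.09, adjusted p = 0.000117) and fell with the drug at 96 h (-0.45 ± 0.10, adjusted p = 0.0106), from a mean of 71.6 ± 11.3 to 52.0 ± 3.52 CPM (SD, n = 3). The difference between CCNB1 and CCNB2 was not itself tested. FOXM1, a transcription factor of G2 genes, stood at 63.8, 63.3 and 68.0 CPM in vehicle and 62.1, 64.8 and 62.9 CPM in GSK591 cells at 24 h and was not called (-0.04 ± 0.03, adjusted p = 0.433). With 96 h of exposure, levels were 73.7, 83.7 and 73.7 CPM in vehicle and 53.4, 69.2 and 55.3 CPM in GSK591 cells. No treated library reached a vehicle library (-0.36 ± 0.10, adjusted p = 0.0238), though the call was lost without GSK591 replicate 1 (-0.29, 0.0725), GSK591 replicate 3 (-0.31, 0.0887) or vehicle replicate 2 (-0.30, 0.0961). The phosphatase genes CDC25B and CDC25C, which activate CDK1, fell at 96 h by 0.36 ± 0.10 and 0.42 ± 0.13 on the log2 scale. CDC25B lost that call without GSK591 replicate 3 (-0.34, 0.0655) or vehicle replicate 2 (-0.31, 0.0807), and CDC25C without GSK591 replicate 1 (-0.38, 0.0932), GSK591 replicate 3 (-0.37, 0.109) or vehicle replicate 2 (-0.30, 0.103).

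**Figure D3:**
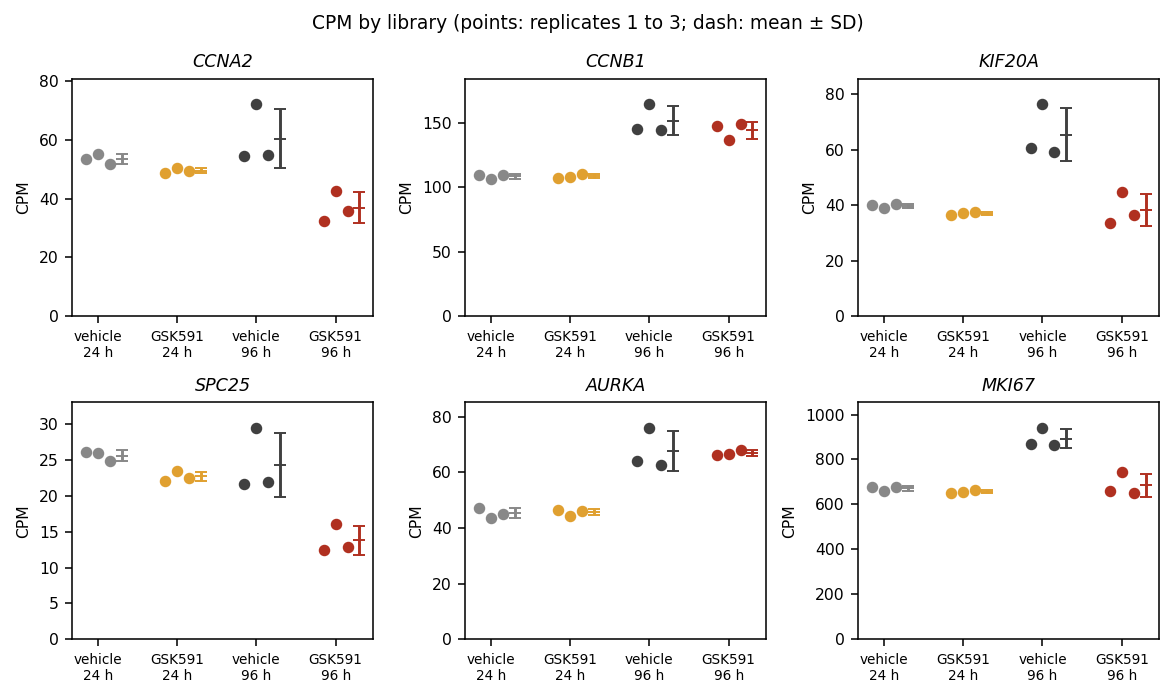
CPM (y axes, from 0) of CCNA2, CCNB1, KIF20A, SPC25, AURKA and MKI67 in the 3 libraries of each group (x axes), with the mean ± SD beside them. For CCNA2, KIF20A, SPC25 and MKI67 all GSK591 libraries of 96 h lie below all vehicle libraries of 96 h, and for CCNB1 and AURKA they overlap.

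Among the 7 genes of the mitotic kinases and the chromosomal passenger complex, the drug gave no call at 24 h and 3 lower calls at 96 h (PLK1, BIRC5 and CDCA8), and all 7 rose in vehicle cells. At 24 h 1 was lower and 0 were higher at an unadjusted p under 0.05, and DESeq2 called 0. PLK1, a kinase that acts from mitotic entry to cytokinesis, read 77.9, 73.4 and 78.8 CPM at 24 h and 109.7, 131 and 109.9 CPM at 96 h in vehicle cells. All 96 h libraries were above all 24 h libraries (0.60 ± 0.06, adjusted p = 3.24e-05). In GSK591 cells it read 78.5, 78.6 and 80.8 CPM at 24 h, where it was not called (0.05 ± 0.03, adjusted p = 0.315), and 94.3, 105 and 97.6 CPM at 96 h. The fall at 96 h was close to the threshold (-0.22 ± 0.08, adjusted p = 0.0491) and its call was lost without GSK591 replicate 1 (-0.20, 0.134), GSK591 replicate 3 (-0.21, 0.134), vehicle replicate 1 (-0.27, 0.0526), vehicle replicate 2 (-0.14, 0.145) or vehicle replicate 3 (-0.27, 0.0536). AURKA, the kinase of spindle poles, showed no call for the drug. It stood at 47.2, 43.8 and 45.2 CPM in vehicle and 46.5, 44.4 and 46.2 CPM in GSK591 cells at 24 h, and at 64.2, 76.1 and 62.8 CPM in vehicle and 66.2, 66.6 and 68.1 CPM in GSK591 cells at 96 h. The groups overlapped at both times (0.01 ± 0.04, adjusted p = 0.891 at 24 h, and 0.00 ± 0.07, adjusted p = 1 at 96 h), and vehicle cells rose by 0.57 ± 0.07, adjusted p = 5.72e-05.

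The passenger complex joins the kinase AURKB to INCENP, survivin (BIRC5) and borealin (CDCA8) at centromeres. AURKB stood at 64.2, 65.0 and 66.5 CPM in vehicle and 61.7, 64.5 and 61.3 CPM in GSK591 cells at 24 h, a difference that was not called (-0.06 ± 0.03, adjusted p = 0.173). At 96 h the libraries read 82.3, 95.3 and 82.9 CPM in vehicle and 63.0, 86.7 and 69.9 CPM in GSK591 cells. The treated library numbered 2 lay inside the vehicle range (-0.23 ± 0.11, adjusted p = 0.141), and without the libraries numbered 2 the fall was called (-0.31 ± 0.05, adjusted p = 6.85e-05). BIRC5 had 68.2, 84.2 and 68.0 CPM in vehicle and 50.9, 62.1 and 57.1 CPM in GSK591 cells at 96 h, with no overlap (-0.36 ± 0.10, adjusted p = 0.0218). That call was lost without GSK591 replicate 1 (-0.29, 0.0673), GSK591 replicate 3 (-0.35, 0.0665) or vehicle replicate 2 (-0.25, 0.0742). At 24 h BIRC5 read 61.2, 61.8 and 60.5 CPM in vehicle and 58.6, 57.1 and 58.8 CPM in GSK591 cells. These groups did not overlap either, but the test was not passed (-0.07 ± 0.03, adjusted p = 0.099). INCENP, the scaffold, had the smallest vehicle rise of the 7 (0.15 ± 0.05, adjusted p = 0.0186), which was lost without vehicle replicate 1 (0.14, 0.0683), vehicle replicate 2 (0.15, 0.055) or vehicle replicate 3 (0.15, 0.0539) of 24 h, and no drug call at 96 h (-0.08 ± 0.07, adjusted p = 0.367). Without vehicle replicate 2 of 96 h the vehicle rises of INCENP and BIRC5 were 0.09 and 0.16, against 0.15 and 0.26 with it. CDCA8 fell at 96 h (-0.28 ± 0.09, adjusted p = 0.0327) and lost that call without GSK591 replicate 1 (-0.24, 0.0979), GSK591 replicate 3 (-0.27, 0.0985) or vehicle replicate 2 (-0.18, 0.0927). TPX2, which activates AURKA on the spindle, was not called at 96 h (-0.20 ± 0.08, adjusted p = 0.0621) and was called without GSK591 replicate 2 (-0.23, 0.035). It rose in vehicle cells (0.23 ± 0.06, adjusted p = 0.0101), by 0.14 without vehicle replicate 2 of 96 h.

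Of the 8 genes of the spindle checkpoint, APC/C and chromatid separation, the drug gave no call at 24 h and 5 lower calls at 96 h (BUB1B, MAD2L1, CDC20, UBE2C and PTTG1), and 6 rose in vehicle cells. At 24 h, 0 were lower and 1 was higher at an unadjusted p under 0.05, and DESeq2 called 0. MAD2L1, the checkpoint protein that binds CDC20, was 1 of 2 members here that did not rise. It read 39.3, 39.5 and 38.9 CPM at 24 h and 34.6, 43.5 and 34.2 CPM at 96 h in vehicle cells, and these overlapped (-0.08 ± 0.08, adjusted p = 0.443). Without vehicle replicate 2 of 96 h it was called lower between the times (-0.18, adjusted p = 2.73e-05). In GSK591 cells it read 36.7, 38.3 and 37.7 CPM at 24 h, where it was not called (-0.06 ± 0.03, adjusted p = 0.236), and 24.1, 29.1 and 26.3 CPM at 96 h, below all vehicle libraries (-0.48 ± 0.11, adjusted p = 0.0087). TTK is a kinase that starts checkpoint signalling. It stood at 47.0, 47.3 and 47.5 CPM in vehicle and 48.8, 51.1 and 51.3 CPM in GSK591 cells at 24 h, every treated library above every vehicle library, and missed the threshold (0.09 ± 0.03, adjusted p = 0.0525). The 96 h libraries stood at 51.1, 60.4 and 48.6 CPM in vehicle and 55.8, 51.8 and 58.6 CPM in GSK591 cells, with overlap (0.07 ± 0.08, adjusted p = 0.525). Its vehicle change was not called (0.17 ± 0.07, adjusted p = 0.0517), and was called higher without vehicle replicate 1 (0.21, 0.0467), vehicle replicate 2 (0.09, 0.0239) or vehicle replicate 3 (0.23, 0.0148) of 96 h. Without the libraries numbered 2 it was called higher at 96 h (0.20 ± 0.04, adjusted p = 0.00144), the single higher call among the 42 members at that setting.

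BUB1, a kinase of the checkpoint, stood at 84.4, 80.4 and 79.1 CPM in vehicle and 81.6, 82.4 and 84.8 CPM in GSK591 cells at 24 h. The groups overlapped (0.03 ± 0.03, adjusted p = 0.564). Its 96 h values were 110.0, 127 and 109 CPM in vehicle and 99.3, 103 and 105 CPM in GSK591 cells, with no overlap but no call (-0.15 ± 0.07, adjusted p = 0.0955). In vehicle cells it rose (0.50 ± 0.06, adjusted p = 4.88e-05). CDC20, the activator of APC/C, stood at 77.8, 77.6 and 80.7 CPM in vehicle and 80.7, 80.0 and 82.2 CPM in GSK591 cells at 24 h and was not called (0.04 ± 0.03, adjusted p = 0.351). Its values were 106, 125 and 109 CPM in vehicle and 91.9, 99.9 and 99.2 CPM in GSK591 cells at 96 h, without overlap (-0.21 ± 0.07, adjusted p = 0.0416), a call lost without GSK591 replicate 1 (-0.18, 0.124), GSK591 replicate 3 (-0.22, 0.0907), vehicle replicate 2 (-0.14, 0.122) or vehicle replicate 3 (-0.24, 0.0617). The vehicle rise of CDC20 was 0.52 ± 0.06, adjusted p = 3.2e-05. UBE2C, the ubiquitin-conjugating enzyme of APC/C, had the lowest drug value of this group at 96 h (-0.50 ± 0.13, adjusted p = 0.0153), lost without GSK591 replicate 3 (-0.50, 0.0522) or vehicle replicate 2 (-0.37, 0.0593). PTTG1 encodes securin and has near-identical copies, so its counts are uncertain. It fell by 0.22 ± 0.08 at 96 h (adjusted p = 0.0479) and lost the call without GSK591 replicate 1 (-0.20, 0.125), GSK591 replicate 3 (-0.24, 0.0872), vehicle replicate 1 (-0.26, 0.0626) or vehicle replicate 2 (-0.13, 0.112). BUB1B, which encodes BUBR1, fell at 96 h (-0.22 ± 0.07, adjusted p = 0.0307) and lost the call without GSK591 replicate 1 (-0.21, 0.0796), GSK591 replicate 3 (-0.18, 0.108), vehicle replicate 1 (-0.24, 0.0554) or vehicle replicate 2 (-0.16, 0.095). ESPL1, the gene of separase, rose in vehicle cells (0.43 ± 0.06, adjusted p = 0.000281) and was not called with the drug at 96 h (-0.18 ± 0.12, adjusted p = 0.242), where it was called without GSK591 replicate 2 (-0.34, 0.00652).

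Of the 6 centromere and kinetochore genes, 2 fell at 24 h (NDC80 and SPC25) and 3 at 96 h (these and CENPA), and 4 rose in vehicle cells. SPC25 and NDC80 encode subunits of the same complex, which binds microtubules, as does NUF2. SPC25 had the lowest drug values of all 42 genes at 96 h. It read 26.1, 25.9 and 24.8 CPM in vehicle and 22.1, 23.4 and 22.5 CPM in GSK591 cells at 24 h. No treated library reached the vehicle range (-0.17 ± 0.04, adjusted p = 0.0079). With 96 h of exposure, levels were 21.6, 29.5 and 21.9 CPM in vehicle and 12.4, 16.1 and 12.9 CPM in GSK591 cells, again with no overlap (-0.80 ± 0.14, adjusted p = 0.0037). Its vehicle change was not called (-0.09 ± 0.10, adjusted p = 0.476), and without vehicle replicate 2 of 96 h it was called lower (-0.24, adjusted p = 7.83e-06). NDC80 read 44.9, 44.8 and 43.8 CPM in vehicle and 39.5, 42.3 and 40.5 CPM in GSK591 cells at 24 h, without overlap (-0.12 ± 0.03, adjusted p = 0.0188), a call lost without GSK591 replicate 1 (-0.10, 0.117), GSK591 replicate 3 (-0.12, 0.0655), vehicle replicate 1 (-0.12, 0.0638) or vehicle replicate 2 (-0.12, 0.0632). At 96 h the libraries read 44.2, 58.4 and 43.0 CPM in vehicle and 33.1, 37.2 and 34.8 CPM in GSK591 cells. It was lower in every treated library than in any vehicle library (-0.45 ± 0.11, adjusted p = 0.0135), and the call was lost without GSK591 replicate 3 (-0.44, 0.0502).

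NUF2 encodes the direct partner of NDC80. It stood at 37.4, 38.6 and 38.5 CPM in vehicle and 39.1, 38.8 and 39.2 CPM in GSK591 cells at 24 h, with no overlap (0.03 ± 0.03, adjusted p = 0.575). Its levels were 50.7, 62.2 and 48.5 CPM in vehicle and 48.9, 58.9 and 52.1 CPM in GSK591 cells at 96 h, with overlap (0.01 ± 0.10, adjusted p = 0.971), and vehicle cells rose by 0.49 ± 0.08, adjusted p = 0.000414. Whether the drug effect differed between NUF2 and NDC80 was not tested. CENPA, the histone variant that marks centromeres, stood at 15.4, 15.5 and 14.1 CPM in vehicle and 13.6, 14.4 and 14.8 CPM in GSK591 cells at 24 h with overlap (-0.08 ± 0.05, adjusted p = 0.385). The 96 h libraries stood at 19.6, 23.0 and 20.6 CPM in vehicle and 13.5, 16.4 and 14.3 CPM in GSK591 cells, without overlap (-0.49 ± 0.10, adjusted p = 0.00522), and its vehicle rise was 0.48 ± 0.07, adjusted p = 0.000189. CENPE, a kinesin of kinetochores, had the smallest vehicle p-value of the 42 genes. It read 28.1, 25.1 and 25.5 CPM at 24 h and 40.5, 46.1 and 40.8 CPM at 96 h in vehicle cells (0.69 ± 0.06, adjusted p = 1.12e-05). In GSK591 cells it read 24.9, 24.6 and 23.5 CPM at 24 h and 32.3, 39.8 and 31.8 CPM at 96 h, with no call at either time (-0.11 ± 0.05, adjusted p = 0.11, and -0.27 ± 0.10, adjusted p = 0.0537). The 96 h difference was called without GSK591 replicate 2 (-0.40, 0.000916). CENPF, a large kinetochore protein, rose in vehicle cells (0.38 ± 0.07, adjusted p = 0.000807) and was not called with the drug at 96 h (-0.11 ± 0.09, adjusted p = 0.352).

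Of the 12 kinesin, spindle and cytokinesis genes, 5 fell at 24 h (KIF11, KIF20A, NUSAP1, HMMR and ANLN), 6 fell at 96 h, and 11 rose in vehicle cells. KIF20A, a kinesin of the central spindle, had the highest vehicle rise and, after SPC25, the lowest drug value at 96 h of the 42 genes. It stood at 40.0, 39.1 and 40.3 CPM in vehicle and 36.3, 37.0 and 37.4 CPM in GSK591 cells at 24 h. The groups did not overlap (-0.11 ± 0.03, adjusted p = 0.0327), and the call was lost without GSK591 replicate 1 (-0.10, 0.137), GSK591 replicate 3 (-0.12, 0.0604), vehicle replicate 1 (-0.11, 0.0824), vehicle replicate 2 (-0.12, 0.0505) or vehicle replicate 3 (-0.10, 0.0909). Its 96 h values were 60.7, 76.4 and 59.3 CPM in vehicle and 33.7, 44.8 and 36.3 CPM in GSK591 cells, with no overlap (-0.76 ± 0.13, adjusted p = 0.00288). Vehicle cells had risen by 0.71 ± 0.08, adjusted p = 5.34e-05, and the treated libraries of 96 h lay between 33.7 and 44.8 CPM, around the vehicle level of 24 h. HMMR, a microtubule-binding protein of spindle poles, had the smallest p-value of the 42 at 24 h. It stood at 40.0, 39.0 and 38.8 CPM in vehicle and 31.1, 35.4 and 34.8 CPM in GSK591 cells at 24 h (-0.22 ± 0.04, adjusted p = 0.00202). With 96 h of exposure, levels were 48.0, 63.0 and 47.1 CPM in vehicle and 40.8, 46.6 and 42.8 CPM in GSK591 cells. No treated library reached the lowest vehicle library, yet the test was not passed (-0.26 ± 0.11, adjusted p = 0.0863). Without the libraries numbered 2 it was called (-0.19 ± 0.04, adjusted p = 0.00183).

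NUSAP1, which bundles spindle microtubules, read 178, 174 and 180.1 CPM in vehicle and 161, 168 and 166 CPM in GSK591 cells at 24 h. The groups did not overlap (-0.11 ± 0.02, adjusted p = 0.00638), and the call was lost without GSK591 replicate 1 (-0.09, 0.0554). At 96 h the libraries read 213, 261 and 212 CPM in vehicle and 172, 185 and 181 CPM in GSK591 cells, also apart (-0.33 ± 0.08, adjusted p = 0.0131). PRC1, which cross-links the central spindle (and is not the Polycomb complex of the same name), stood at 104, 107 and 107 CPM in vehicle and 101, 105 and 106 CPM in GSK591 cells at 24 h, with overlap (-0.02 ± 0.03, adjusted p = 0.597). Its values were 148, 166 and 146 CPM in vehicle and 131, 142 and 136 CPM in GSK591 cells at 96 h, with no overlap and no call (-0.15 ± 0.06, adjusted p = 0.0853), after a vehicle rise of 0.53 ± 0.05, adjusted p = 1.26e-05. It was called without GSK591 replicate 2 (-0.20, 0.0214). ECT2, the exchange factor that starts furrow formation, had 49.2, 46.5 and 48.6 CPM in vehicle and 48.9, 47.6 and 47.8 CPM in GSK591 cells at 24 h (0.00 ± 0.03, adjusted p = 0.987). It had 54.7, 60.1 and 53.4 CPM in vehicle and 53.1, 54.6 and 54.3 CPM in GSK591 cells at 96 h, and these overlapped (-0.04 ± 0.06, adjusted p = 0.621). The other kinesins KIF2C, KIF4A and KIF23 fell at 96 h (-0.40 ± 0.10, -0.41 ± 0.08 and -0.39 ± 0.12), KIF23 losing its call without GSK591 replicate 1 (-0.32, 0.0776), GSK591 replicate 3 (-0.35, 0.0915) or vehicle replicate 2 (-0.30, 0.102). KIF4A counts could be shared with its near-identical copy KIF4B. DLGAP5, a spindle protein, fell as well (-0.40 ± 0.09, adjusted p = 0.00954). KIF11, the motor that separates spindle poles, fell at 24 h (-0.10 ± 0.03, adjusted p = 0.0111), a call lost without GSK591 replicate 1 (-0.09, 0.0557) or vehicle replicate 2 (-0.08, 0.0764). It was not called at 96 h (-0.20 ± 0.10, adjusted p = 0.116, and called without GSK591 replicate 2 (-0.28, 0.0275)) or in the vehicle change (-0.01 ± 0.07, adjusted p = 0.957), where it was called lower without vehicle replicate 2 of 96 h (-0.12, adjusted p = 0.000401). ANLN, a scaffold of the contractile ring, fell at 24 h (-0.11 ± 0.03, adjusted p = 0.0345) and lost the call without GSK591 replicate 1 (-0.10, 0.136), GSK591 replicate 3 (-0.12, 0.0692), vehicle replicate 1 (-0.09, 0.119) or vehicle replicate 2 (-0.10, 0.121), and it was not called at 96 h (-0.19 ± 0.12, adjusted p = 0.214) except without GSK591 replicate 2 (-0.33, 0.0118). KIF18B, a kinesin of spindle microtubule ends, was not called with the drug at 96 h (-0.27 ± 0.16, adjusted p = 0.194) except without GSK591 replicate 2 (-0.52, 0.000242).

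Both genes of chromosome structure fell at 96 h and rose in vehicle cells. TOP2A, the topoisomerase that untangles sister chromatids, stood at 361, 357 and 348 CPM in vehicle and 326, 329.9 and 336 CPM in GSK591 cells at 24 h. The groups did not overlap (-0.10 ± 0.02, adjusted p = 0.00392). Its levels were 469, 588 and 478 CPM in vehicle and 342, 409.6 and 356 CPM in GSK591 cells at 96 h, again apart (-0.45 ± 0.10, adjusted p = 0.00878), and vehicle cells rose by 0.52 ± 0.07, adjusted p = 0.000171. MKI67, whose protein Ki-67 coats mitotic chromosomes, stood at 678, 659.5 and 677 CPM in vehicle and 651, 654 and 666 CPM in GSK591 cells at 24 h, with overlap and no call (-0.03 ± 0.02, adjusted p = 0.322). The 96 h libraries stood at 871, 942 and 866 CPM in vehicle and 661, 745 and 650.3 CPM in GSK591 cells. The lowest vehicle library was above the highest treated one (-0.37 ± 0.07, adjusted p = 0.00537), after a vehicle rise of 0.41 ± 0.04, adjusted p = 2.07e-05.

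Without the 96 h libraries numbered 2, all 25 members that had fallen at 96 h were again called lower. The drug effect was then -0.68 ± 0.05 for CCNA2, -0.37 ± 0.04 for CCNB2, -0.58 ± 0.04 for CDK1 and -0.44 ± 0.04 for FOXM1. It was -0.19 ± 0.04 for PLK1, -0.33 ± 0.05 for BIRC5, -0.45 ± 0.05 for MAD2L1, -0.17 ± 0.04 for CDC20 and -0.49 ± 0.06 for UBE2C. For SPC25, NDC80 and CENPA it was -0.78 ± 0.06, -0.36 ± 0.04 and -0.52 ± 0.06, for KIF20A, NUSAP1 and PRC1 -0.78 ± 0.04, -0.26 ± 0.04 and -0.13 ± 0.04, and for TOP2A and MKI67 -0.44 ± 0.04 and -0.40 ± 0.04. The 6 members that were not called at this setting were CCNB1, AURKA, INCENP, BUB1, NUF2 and ECT2, with CCNB1 at 0.03 ± 0.04, AURKA at 0.08 ± 0.04, INCENP at -0.09 ± 0.04, BUB1 at -0.09 ± 0.04, NUF2 at 0.02 ± 0.04 and ECT2 at -0.01 ± 0.04. CDC25B and CDC25C were at -0.42 ± 0.05 and -0.42 ± 0.08, CDCA8 at -0.24 ± 0.04, BUB1B at -0.21 ± 0.04 and PTTG1 at -0.13 ± 0.04. The kinesins KIF2C, KIF4A and KIF23 were at -0.38 ± 0.04, -0.34 ± 0.04 and -0.43 ± 0.04, and DLGAP5 at -0.36 ± 0.04. At the same setting the vehicle change of the members ran from -0.24 for SPC25 to 0.63 for CENPE. It was 0.60 ± 0.03 for KIF20A, 0.56 ± 0.03 for CCNB2, 0.52 ± 0.03 for PLK1, 0.49 ± 0.03 for AURKA, 0.31 ± 0.03 for CDK1, 0.41 ± 0.03 for TOP2A and 0.37 ± 0.02 for MKI67. It was more than 1.5 times smaller than with all libraries for TTK (0.09 ± 0.03), UBE2C (0.25 ± 0.03), BIRC5, TPX2, INCENP and CCNA2, and NDC80, not called with or without them, went from 0.12 to -0.02.

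The drug effect was more negative at 96 h than at 24 h in all 42 members by its estimate with all 12 libraries under TMM, and in all but AURKA (0.01) when scaled by library size only (50.7% of all genes tested had a negative difference), and the difference itself, tested in 1 fit of all 12 libraries, was called for 17 of them and in no member the other way. Over all genes, 13.2% were called lower and 11% higher. The median difference of the members was -0.26, beside -0.01 for all genes, and at an unadjusted p under 0.05, 26 members were lower and 0 higher, and DESeq2 called 21 lower and 0 higher. Without the 96 h libraries numbered 2 the estimate was above 0, with no call, in CCNB1 (0.02), AURKA (0.06), TTK (0.09) and HMMR (0.01). It was also above 0 for NUF2 without vehicle replicate 2 (0.06) or GSK591 replicate 1 (0.02) of 96 h. The count of lower calls was 33 without the libraries numbered 2, 32 without GSK591 replicate 2 of 96 h alone, and 9 or 10 without any 1 library of 24 h other than GSK591 replicate 1 or without GSK591 replicate 1 or 3 of 96 h. The share of all genes called lower was 23.3% and 21.3% in the former settings, and from 7.88% to 12.3% in the others. Among the 11 members that fell at 24 h, 8 (72.7%) were also among the 25 of all 42 that fell at 96 h (32% of those). The 3 others were KIF11, HMMR and ANLN. These comparisons share no libraries.

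Fewer members were called between the times in GSK591 cells than in vehicle cells. The libraries also varied more in the treated comparison (biological coefficient of variation 7.24%, against 4.35% in the vehicle one), which bears on the counts. In treated cells 15 members rose from 24 to 96 h and 4 fell, with a median log2 fold change of 0.10, against 36 and 0 with a median of 0.41 in vehicle cells. Over all genes, 31.1% rose and 30.8% fell in treated cells, 61.9% in all. The treated groups of the 2 times did not overlap upwards for 19 members (34.6% of all genes tested) and downwards for 5 (33.9%). All 15 were among the 36 that rose in vehicle cells (41.7% of those). Since 36 of all 42 members rose there, most of any 15 members would be among them. These comparisons share no libraries, but both set the libraries of 96 h against those of 24 h. AURKA, CENPE and NUF2 rose in treated cells by 0.54 ± 0.04, 0.50 ± 0.09 and 0.44 ± 0.07. The 4 that fell were CCNA2, MAD2L1, NDC80 and SPC25 (-0.43 ± 0.09, -0.51 ± 0.07, -0.23 ± 0.06 and -0.72 ± 0.10), and none of these 4 had passed the test in vehicle cells. KIF20A, which had the highest rise in vehicle cells, was not called in treated cells (0.05 ± 0.10, adjusted p = 0.692), nor was CDK1 (-0.05 ± 0.08, adjusted p = 0.585, called lower without GSK591 replicate 2 of 96 h, adjusted p = 0.00187) or MKI67 (0.05 ± 0.06, adjusted p = 0.447). By group means, vehicle cells of 96 h were the highest of the 4 groups for 38 members, and GSK591 cells of 96 h lay above both 24 h groups for 27 of these. For 7 of them GSK591 cells of 96 h were the lowest group. Without GSK591 replicate 2 of 96 h, 17 rose and 11 fell in treated cells, with a median of 0.04 (36% and 36.3% of all genes tested rose and fell). Scaled by library size only, 22 rose and 3 fell, with a median of 0.20 (39.5% and 23.2% of all genes tested rose and fell). The median over all genes was then 0.12, against 0.02 with TMM.

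**Figure D4:**
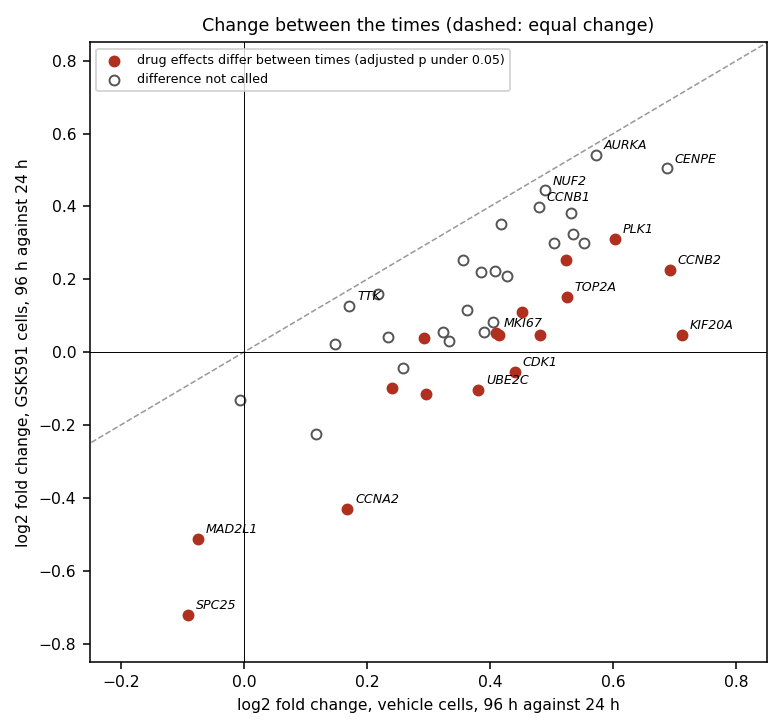
Log2 fold change from 24 to 96 h in vehicle cells (x axis) and in GSK591 cells (y axis), 1 point for each of the 42 genes. The dashed line marks equal change. With all 12 libraries the points lie below it, and filled points are the 17 genes whose drug effects differed between the times in edgeR's test. AURKA and NUF2 lie near the line, and KIF20A, CCNB2 and SPC25 far below it.

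The other genes of G2 phase and mitosis came from 6 lists with 86 symbols, of which 85 were found and tested. With GSK591, 17 fell and 3 rose at 24 h, and 47 fell and 2 rose at 96 h. The shares of all genes tested were 7.29% lower and 7.44% higher at 24 h, and 19.6% lower and 20.7% higher at 96 h. None of the 85 was called at 24 h with all 12 samples in 1 fit, where 0.212% of all genes tested were called. In vehicle cells 33 rose and 20 fell (median 0.08), or 34 and 28 without vehicle replicate 2 of 96 h (median 0.03), beside 36 and 0 of the 42 members. Of all genes tested, 28.3% rose and 27.8% fell there, or 34.3% and 34% without that library. The difference between the lists was not tested. At 96 h the drug calls were 9 lower of 12 among other kinases, cyclin partners and CDK1 regulators, led by CDC25A, a phosphatase of S phase entry and mitosis (-0.84 ± 0.12), and CCNF, the cyclin F gene (-0.47 ± 0.08). Among 24 other kinetochore, centromere and checkpoint genes 16 fell, led by CENPM (-0.77 ± 0.11) and SPC24, the partner of SPC25 (-1.12 ± 0.17). In condensin and cohesin 9 of 12 fell and 1 rose, led by the condensin subunits NCAPG2 and NCAPG (-0.79 ± 0.11 and -0.61 ± 0.09). Of 17 other spindle and cytokinesis genes 8 fell, led by CEP55 and KIF15 (-0.64 ± 0.10 and -0.82 ± 0.14). Other APC/C genes gave 1 lower call of 10, CDC23 (-0.17 ± 0.06), with CDC16 next and not called (0.13 ± 0.05, adjusted p = 0.0721). Of 10 DREAM and MuvB regulators 4 fell and 1 rose, led by RBL1, a gene of the retinoblastoma family (-0.35 ± 0.06), and LIN37, which rose (0.34 ± 0.07). Over the 85 genes, the lower count at 24 h was 8 when GSK591 replicate 1 was left out, 11 when GSK591 replicate 3 was and 10 when vehicle replicate 2 was (3.84%, 3.81% and 3.97% of all genes tested). At 96 h it was 29 without GSK591 replicate 3 and 30 without vehicle replicate 2 (12.2% and 12% of all genes tested). The higher counts, of 3 and 2, moved to 1 at 24 h without GSK591 replicate 1 or 3 or vehicle replicate 2 (3.52%, 4% and 4.06% of all genes tested). With the replicate block 7 were higher at 24 h (10.9%). At 96 h the higher count was 6 without GSK591 replicate 2 (26.8%) and 7 with all 12 samples in 1 fit (25.8%). Without the 96 h libraries numbered 2, 59 of the 85 were lower and 9 higher at 96 h (30.2% of all genes tested each way).

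In vehicle cells the S phase genes fell. Of 42 genes of S phase and DNA replication, 30 fell and 1 rose between 24 and 96 h of vehicle (median log2 fold change -0.28), while 36 of the 42 G2 and mitosis genes rose and none fell (median 0.41). With GSK591, 18 S phase genes fell and 0 rose at 24 h (median -0.08), and 35 fell and 1 rose at 96 h (median -0.60). Without the 96 h libraries numbered 2, 38 fell and 1 rose at 96 h (30.2% of all genes tested each way). At 24 h, 1 S phase gene was higher at an unadjusted p under 0.05 and DESeq2 called 0 higher. The 24 h count was 11 without GSK591 replicate 1 or without vehicle replicate 2, and 0 with all 12 samples in 1 fit. In these settings 3.84%, 3.97% and 0.102% of all genes tested were called lower. In GSK591 cells 39 S phase genes fell between the times and 0 rose (median -0.78), with 0 higher at an unadjusted p under 0.05 and 0 called higher by DESeq2. The vehicle counts of the S phase list were 39 lower and 1 higher without vehicle replicate 2 of 96 h (34% and 34.3% of all genes tested). With all libraries, 27.8% of all genes tested fell and 28.3% rose in vehicle cells, and 30.8% fell and 31.1% rose in GSK591 cells. The drug effect was called lower for 7.29% and higher for 7.44% at 24 h, and lower for 19.6% and higher for 20.7% at 96 h. Counts and medians describe the lists, and no test compared them.

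**Figure D5:**
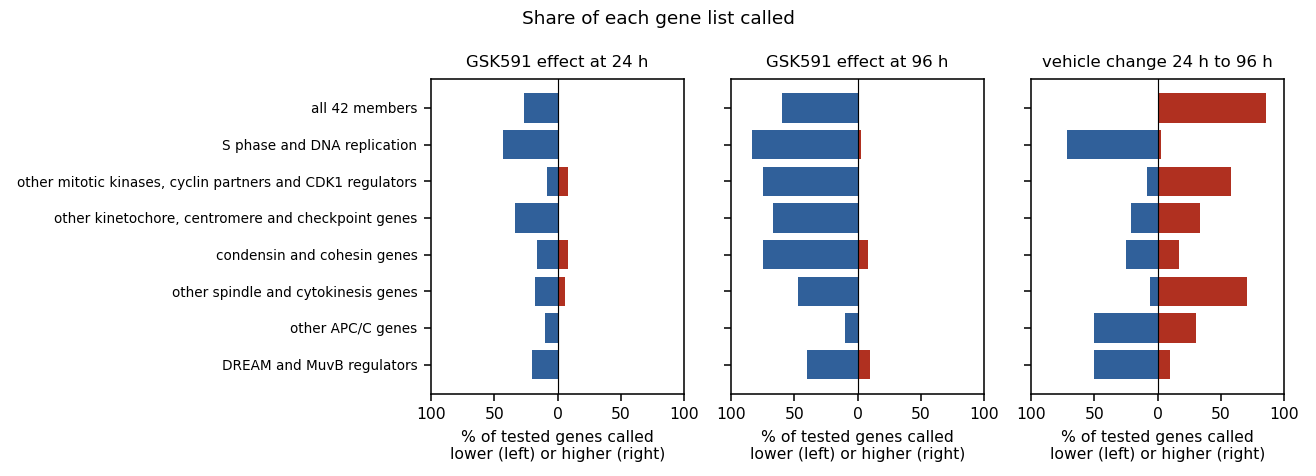
Percentage of the tested genes of each list (y axis) called lower (bars to the left) or higher (bars to the right) in 3 comparisons (panels, x axes in percent). In the vehicle change the 42 genes of G2 phase and mitosis have 36 higher calls and S phase and DNA replication has 30 lower calls.

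In the authors' deposited tables, 14 members had an FDR under 0.05 and a negative fold change at 24 h (5.43% of all 23368 symbols did) and 26 at 96 h (10.5%), with none positive at either time. All 11 members called here at 24 h and all 25 at 96 h were among them. BIRC5, CDC25B and DLGAP5 at 24 h and CENPE at 96 h passed in the authors' deposited table and not here.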

How the data were processed

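RNA was sequenced from 12 libraries of the SUDHL6 line, 3 in each of 4 groups taken from the labels. Reads were aligned with STAR, counted per gene with HTSeq and compared with edgeR on hg19 (GRCh37), per the submitters' processing notes. The sources used here give no software versions, annotation, strand setting or filters for it. Raw counts per gene symbol were deposited by the authors, 1 table for each time. Their deposited comparison tables hold log2 fold changes, log2 CPM, p-values and FDR, used only where named. Without the strand setting, reads of overlapping or antisense genes cannot be told apart.

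Counts were fitted with edgeR 4.0.16 (limma 3.58.1, R 4.3.3): TMM scaling, its default low-count filter, the quasi-likelihood test and Benjamini-Hochberg adjustment over all genes tested. Each comparison used only its own 2 groups, except the difference between the drug effects, which used all 12 libraries. The standard error is the log2 fold change divided by the square root of F. Printed CPM are on 1 TMM scale over the 12 libraries. DESeq2 1.42.0, other scalings and filters, the replicate block, 1 fit of all samples, thinning of the deep library and leaving out libraries were alternatives. The scripts were tested on simulated data with 200 changed genes.

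The members and lists were chosen with earlier results of these data known. The genes described sample by sample were set by a rule: 14 key genes, the members with the smallest and largest p at 96 h in each role, and the 5 with the smallest p at 24 h and in the vehicle change. The 2 genes with the smallest p at 96 h were named for each other list. Promoter sequences are from RefSeq (GRCh38.p14), another build than the counts. CENPU was not matched by symbol. Replicates of a group differed by more than sampling noise (chi-square per degree of freedom from 2.26 to 41.9), so all were kept as separate samples.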

Additional observations from a re-analysis of the deposited data

Results flagged for a closer look

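The drug effect differed between 96 and 24 h in 17 members by edgeR's quasi-likelihood test of the difference (log2 fold change at 96 h minus that at 24 h), each more negative at 96 h. Among genes of mitotic entry it was -0.59 for CCNA2, -0.46 for CCNB2, -0.49 for CDK1 and -0.33 for FOXM1. For the kinase PLK1 it was -0.29. In the checkpoint and APC/C group it was -0.24 for BUB1B, -0.43 for MAD2L1, -0.26 for CDC20 and -0.48 for UBE2C. At the centromere it was -0.43 for CENPA and -0.63 for SPC25. Among spindle genes it was -0.66 for KIF20A, -0.36 for KIF2C, -0.40 for KIF4A and -0.34 for DLGAP5. For TOP2A it was -0.37 and for MKI67 -0.35. Adjusted p ran from 0.00498 for MKI67 to 0.0483 for FOXM1. The calls of CCNA2, CCNB2, CDK1, MAD2L1, CENPA, SPC25, KIF20A, KIF4A and MKI67 were kept under every alternative run, and each of the 8 others was lost in at least 1.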

How the results depend on the processing

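At 24 h, the lower count was 0 with all 12 samples in 1 fit and from 4 to 10 leaving out 1 library, and 1 member (TTK) was called higher with DESeq2's size factors in edgeR. At 96 h, leaving out 1 library gave 13 to 34 lower calls and medians from -0.39 to -0.22, and without the libraries numbered 2 there was 1 higher call. In the vehicle change, leaving out 1 library gave 0 to 3 lower calls and medians from 0.30 to 0.45, and without the libraries numbered 2 there were 3 lower calls and a median of 0.30. For the difference between the drug effects the lower count was 9 to 32 leaving out 1 library and 33 without the libraries numbered 2. Leaving out 1 library, 3.81% to 8.2% of all genes tested were called lower at 24 h and 12% to 28.1% at 96 h. For the difference the share was 7.88% to 21.3%, for the vehicle change 22.8% to 34%, and for treated cells 25.4% to 36.3%. Without the libraries numbered 2 it was 34% for the vehicle change and 36.3% for treated cells. In treated cells the median was 0.20 with library size alone and 0.04 without the libraries numbered 2, leaving out 1 library gave 4 to 11 lower calls, and without the libraries numbered 2 there were 11. Over all genes tested the median in treated cells was 0.12 with library size alone and 0.00 without the libraries numbered 2. KIF18B turned from 0.08 to -0.16 (adjusted p = 0.00483) in treated cells without replicate 2 of 96 h, also without both libraries numbered 2, and ran from -0.16 to 0.21 leaving out 1 library. The cause was not tested. A sign change between 2 values that were not called was not counted as a reversal (87 of 3234 values). The alternatives for treated cells and for the S phase and other lists were chosen after seeing the data. With library size alone 563 genes were called higher and 1220 lower at 24 h, against 980 and 960, and 4656 and 2833 in the vehicle change, against 3778 and 3713.

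The replicate numbers were checked as pairs: same-numbered libraries' deviations correlated at 0.00502, 0.105 and 0.00791 at 24 h and at 0.269, 0.245 and 0.00851 at 96 h. At 96 h the libraries numbered 1 and those numbered 2 correlated best with their own number, but not every library did. Whether same-numbered libraries share more than a number is not in the labels and was not tested. With the replicate block 14 members were lower and 1 higher at 24 h, 34 lower at 96 h, 38 higher in the vehicle change, 24 lower in the difference, and 19 higher and 5 lower in treated cells. Of all genes tested, 10.4% were then lower and 10.9% higher at 24 h, and 23% were lower at 96 h. In the vehicle change 29.6% were higher, in the difference 16.3% were lower, and in treated cells 32.9% were higher and 32.3% lower. Counting depth was at least 272 counts for each member, and 3 libraries a group limit the precision.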
